A study of Mus musculus with 8 samples.

Results

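The genes described here are 10 genes known from muscle or from the actin cytoskeleton, namely Smtn, Actg2, Popdc2, Cnn2, Cnn3, Tagln2, Asb2, Pdlim1, Pdlim4, and Myo6. They were taken by gene name from 29924 names on the array and all 10 were among the 15764 genes tested, a gene being tested where some cell type had it above background at both days. Of the members, 6 were above background on all 8 arrays (Smtn, Cnn2, Cnn3, Tagln2, Pdlim1, and Pdlim4), whereas Actg2, Popdc2, Asb2, and Myo6 entered through the cell types where they were high. They were picked around the levels of Smtn and Actg2 in these same arrays and chosen by how their levels differed between the 4 cell types, so their levels by cell type are given as a description and without a p-value. Only the comparison of d25 with d12 did not enter the choice and was tested.

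The study compared follicular T helper (TFH) and follicular regulatory T (TFR) cells with the CD4 T cells outside the follicle from which they can arise. Mice of the strain B6.Cg-Foxp3<tm1Mal>, 8 to 14 weeks old and of both sexes, carried a green fluorescent protein (GFP) that marks cells with Foxp3, the transcription factor of regulatory T cells. All of them were immunized s.c. with KLH, a foreign protein, in alum, and cells were sorted from their peripheral lymph nodes (pLN) at d12 or d25. RNA of each sorted population, 25 ng from a pool of 8 to 15 mice per the labels, was hybridized to 1 one-color Agilent array. Naive CD4 T cells were sorted as B220- CD4+ GFP- PD1- GL7- and Treg cells as B220- CD4+ GFP+ PD1- GL7-. TFH cells were GFP-, PD1hi and GL7+, while TFR cells were GFP+ and PD1hi with or without GL7. Thus each of the 4 cell types had 2 arrays, 1 per day, no group was left without immunization, and the naive cells came from the immunized mice too. Any p-value below measures the spread between arrays of such pools and not between single mice.

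In smooth muscle, force comes from actin filaments built of alpha and gamma actin isoforms and pulled by class II myosin. Calponins and transgelins bind along these filaments, smoothelin is found with them in contractile cells, and LIM domain proteins link them to alpha-actinin and to adhesion sites. T cells also run on actin, with beta and cytoplasmic gamma actin as the usual isoforms, when they crawl or form a synapse with a B cell.

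Levels are normalized intensities in relative units (RU) scaled to a 75th percentile of 1500 on each array, with values below 20 set to this floor. The scanner software flags spots well above background, and a probe with this flag on more than 50% of the spots used is called above background. A log2 difference is the mean over both days from the fit of all genes, with its standard error (SE). Pairs of values give d12 first and d25 second. Probe positions are those of the files in the mouse build NCBI37, which place a probe but do not say in which exon it lies. Since the arrays measured bulk RNA, a lower share of expressing cells and less RNA per cell cannot be told apart.

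Across the arrays, 18261 to 19867 of 39429 probes were above background and no probe spot was saturated. All 4 arrays of d12 lay on 1 slide, while at d25 naive and TFH cells shared a slide and Treg and TFR cells shared another. Foxp3 ranged from 37266 to 49262 RU in Treg and TFR arrays and reached at most 358 RU in naive and TFH arrays. Bcl6, the transcription factor of follicular T cells, was at least 23711 RU in TFH and TFR cells and at most 6877 RU in naive and Treg cells. The summed level of 8 B cell markers was 1721 and 12889 RU in the TFH arrays of d12 and d25, against 4565 to 5566 RU in naive, 8059 to 8801 RU in Treg and 4659 to 6771 RU in TFR cells. Pax5 was above background on no array, and B220+ cells had been gated out. The part of these markers in the results below was not tested.

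The 10 genes fell into different groups by level. Smtn, Popdc2, and Asb2 were highest in TFH cells, Actg2 was highest in TFR cells, and Cnn3, Pdlim1, Pdlim4, and Myo6 were lower in both follicular populations than in their non-follicular counterparts. Tagln2 and Cnn2 were bright in every population.

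Smtn encodes smoothelin, a protein of contractile smooth muscle cells. Its brighter probe (chr11:3417530-3417589, minus strand) gave 40021 (d12) and 53872 RU (d25) for TFH cells. In TFR cells it read 2265 and 2004 RU, in naive CD4 T cells 467 and 436 RU, and in Treg cells 277 and 177 RU. Hence the 4 cell types did not overlap, with TFH cells above all others, TFR cells next, and Treg cells lowest. The log2 difference between TFH and naive cells was 6.69 ± 0.25 (SE, n = 2 arrays each), a 103-fold higher level, and the one between TFR and Treg cells was 3.27 ± 0.25, a 9.62-fold higher level. Compared with TFH cells, TFR cells were lower by 21.8-fold, with a log2 difference of -4.45 ± 0.25. Among all 15764 genes tested, this ranked 17th by size among the lower levels. Treg cells were below naive cells by a log2 difference of -1.03 ± 0.25. A dimmer probe 5′ of the brighter one in the transcript (chr11:3420834-3420893) gave the same order, with 12923 and 12783 RU in TFH cells, 659 and 610 RU in TFR cells, 117 and 95 RU in naive cells and 56 and 31 RU in Treg cells. It was above background on 6 of the 8 arrays.

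Actg2 encodes the gamma actin of smooth muscle. Its single probe (chr6:83462904-83462963, minus strand) read 21890 RU at d12 and 13604 RU at d25 in TFR cells. In TFH cells it read 2718 and 3580 RU, in Treg cells 2287 and 1066 RU, and in naive cells 60 and 164 RU, of which only the latter was above background. Accordingly, TFR arrays were above all others, TFH arrays were above Treg arrays by less than the Treg arrays differed from each other, and naive arrays were lowest. TFR cells were above Treg cells by a log2 difference of 3.47 ± 0.64 (11.1-fold) and above TFH cells by 2.47 ± 0.64 (5.53-fold). TFH cells were above naive cells by 4.98 ± 0.64 and Treg cells by 3.98 ± 0.64, and at d25, the day with a naive array above background, by 4.45 and 2.70. Actg2 had the largest SE of the 10 genes. The naive arrays differed by 1.46 and the Treg arrays by -1.10 on the log2 scale between d12 and d25. TFR exceeded TFH cells by 3.01 at d12, within 1 slide, and by 1.93 at d25, where TFR and TFH cells, as well as Treg and naive cells, lay on different slides. The contrast of the follicular steps, TFR minus Treg against TFH minus naive, was -1.51 ± 0.91, with -0.77 at d25, and -0.31 with a normexp background correction.

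Since actin isoforms are near-identical in protein, the probes of Actg2 and of Acta2, the alpha actin of smooth muscle, are shown by their last 30 bases as the array design gives them, to let them be told apart.
Actg2 probe end: agccacagatcattaaaaccttcaagcctt
Acta2 probe end: ccaaatcattcctgcccaaagctttgattt
Smtn brighter probe end: acgcagcgttttgataaattattggttttc
Smtn dimmer probe end: agccagactggaagtgcgtgtacacgtaca
The longest run of letters that the whole 60-base Actg2 probe shared with any probe of another actin gene was 8 bases (Actg1), and it was 6 bases for Acta2. Both Smtn probes shared fewer than 14 bases in a row with any probe of another gene name. The Pdlim1 probe was the exception among the members, with 43 bases in common with a probe of a transcript without a gene symbol, and all others shared at most 16. Probes were compared with other probes and not with whole transcripts, so binding to transcripts of other actins was not tested.

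Popdc2 encodes a popeye domain protein that binds cAMP and is known from heart and skeletal muscle. Its probe (chr16:38378016-38378075, plus strand) gave 13637 (d12) and 9979 RU (d25) for TFH cells, and 1015 and 553 RU in TFR cells. In Treg cells it read 262 and 87 RU, and in naive cells 96 and 58 RU, of which the latter was not above background. TFH arrays were above TFR arrays and these above both non-follicular populations, whereas the ranges of Treg and naive cells overlapped. The log2 difference was 7.29 ± 0.28 (156-fold) between TFH and naive cells, 2.31 ± 0.28 (4.95-fold) between TFR and Treg cells and -3.96 ± 0.28 (15.6-fold) between TFR and TFH cells. As the naive array of d25 was not above background, the first of these is measured on both sides only at d12, with 7.15. With normexp, which adds an offset of 50, the TFR versus Treg difference was 1.54.

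Asb2 encodes the substrate receptor of an E3 ubiquitin ligase complex for which filamins are known targets. Its probe (chr12:104559752-104559811, minus strand) read 10521 and 13039 RU in TFH cells and 2222 and 2071 RU in TFR cells. Treg cells read 131 and 112 RU, and naive cells 20 and 58 RU, both not above background. All 4 populations were apart, in the order TFH, TFR, Treg, and naive cells. Since no naive array measured it, Asb2 was at least 186-fold higher in TFH than in naive cells and at least 1.92-fold higher in Treg than in naive cells. TFR cells were above Treg cells by a log2 difference of 4.15 ± 0.45 (17.8-fold) and below TFH cells by 5.46-fold, with a log2 difference of -2.45 ± 0.45.

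**Figure D1:**
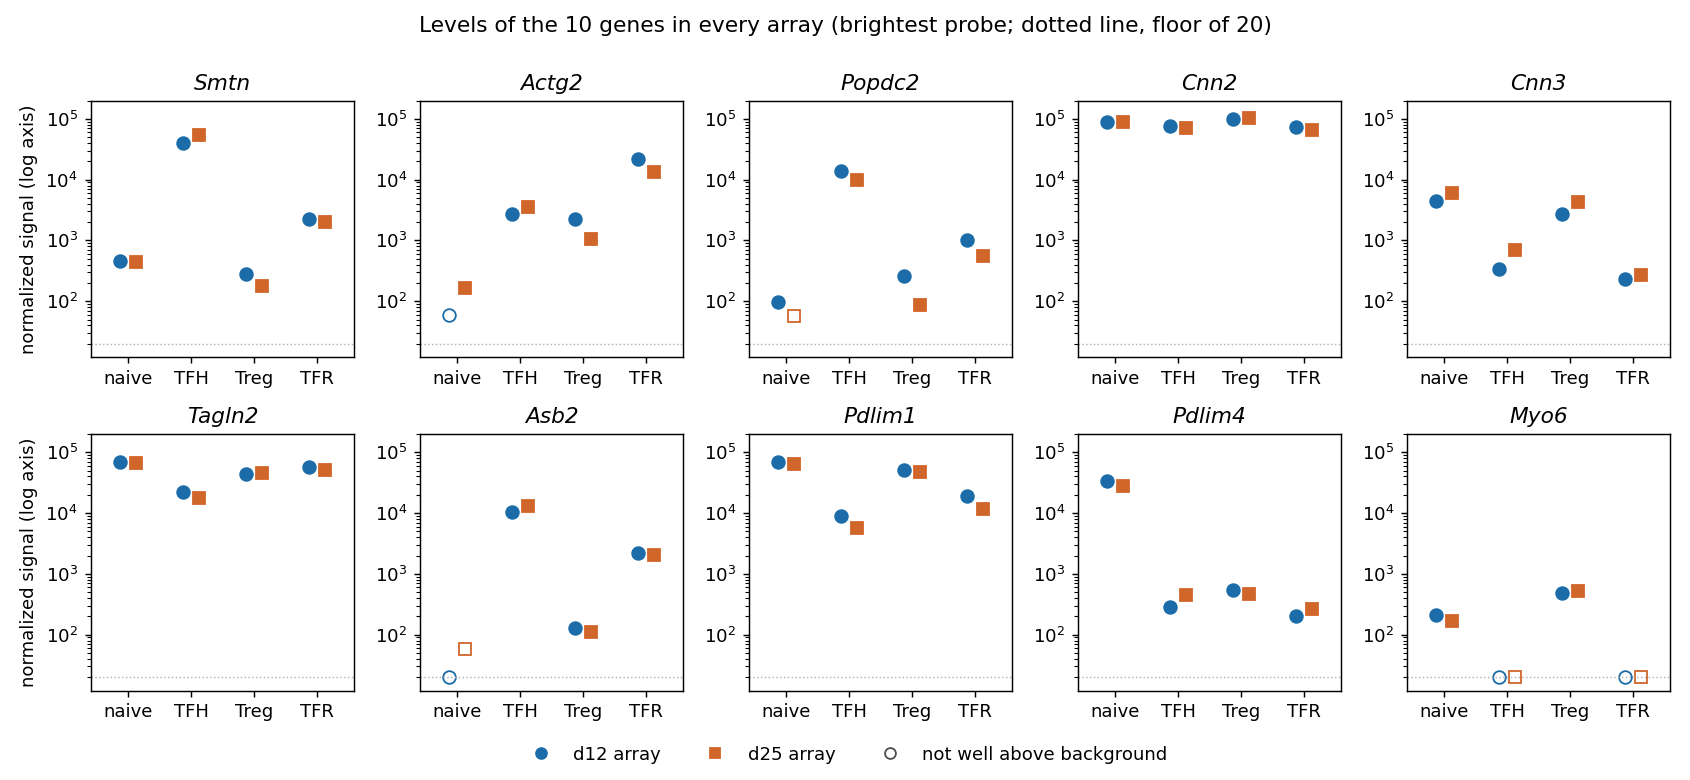
Level of each of the 10 genes on all 8 arrays, by cell type on the x axis and normalized intensity in RU on a logarithmic y axis; circles are d12 and squares d25, and open symbols are not above background. Smtn, Popdc2, and Asb2 peak in TFH cells and Actg2 peaks in TFR cells, while Pdlim4 is between 27899 and 33930 RU in naive cells and at most 549 RU elsewhere.

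Among the genes that were lower in follicular cells, Pdlim4 encodes a PDZ and LIM domain protein that binds alpha-actinin. Its probe (chr11:53868434-53868493, minus strand) read 33930 and 27899 RU in naive cells. The other populations read 288 and 451 RU (TFH), 549 and 458 RU (Treg), and 204 and 262 RU (TFR). Naive arrays were apart from all others, Treg arrays were above TFH arrays by less than the spread of the latter, and TFR arrays were lowest. Treg cells were below naive cells by a log2 difference of -5.94 ± 0.27, the 1st of all genes tested by size among the lower levels, at 61.4-fold. TFR cells differed from Treg cells by -1.12 ± 0.27, so most of the distance to naive cells was present in Treg cells already. Between TFR and TFH cells the difference was -0.64 ± 0.27, and -0.29 without the TFH array of d25 or -0.995 without the one of d12.

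Pdlim1, of the same family, was bright throughout. Its probe (chr19:40296839-40296898, minus strand) read 67933 and 63803 RU in naive, 50846 and 46739 RU in Treg, 19370 and 11811 RU in TFR and 8871 and 5788 RU in TFH cells. The 4 populations did not overlap, and unlike for Pdlim4, Treg cells were close to naive cells (-0.43 ± 0.20, and -0.24 without the naive array of d25 or -0.26 without the Treg array of d12). The log2 difference was -3.20 ± 0.20 (9.19-fold) for TFH versus naive and -1.69 ± 0.20 (3.22-fold) for TFR versus Treg cells.

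Cnn3 encodes the acidic calponin, which is found in many non-muscle cells. Its brightest probe (chr3:121161024-121161083, plus strand) read 4429 and 6092 RU in naive, 2761 and 4231 RU in Treg, 342 and 708 RU in TFH and 235 and 274 RU in TFR cells. Follicular arrays were below non-follicular arrays in all cases. The log2 difference was -3.40 ± 0.21 (10.6-fold) for TFH versus naive and -3.75 ± 0.21 (13.5-fold) for TFR versus Treg cells, the 22nd lower level by size. The contrast between both was -0.35 ± 0.30, but 0.14 at d12 and -0.84 at d25. A second probe (chr3:121160748-121160807) read 4548 and 5209 RU in naive, 2744 and 3638 RU in Treg, 406 and 699 RU in TFH and 170 and 197 RU in TFR cells. TFR cells were below TFH cells on both, with -0.95 ± 0.21 on the brightest probe and -1.54 on the second. Another probe under this gene name, on the opposite strand, was above background on no array.

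Myo6 encodes myosin VI, the myosin that moves toward the minus end of actin filaments. Its probe (chr9:80155567-80155626, plus strand) read 207 and 167 RU in naive and 480 and 518 RU in Treg cells. All TFH and TFR arrays were at the floor of 20 RU and not above background. Accordingly, Myo6 was at least 5.41-fold lower in TFH than in naive cells and at least 10.75-fold lower in TFR than in Treg cells, and no fold is given between TFR and TFH cells. Treg cells were above naive cells by 2.68-fold. With the offset of normexp the log2 difference was -1.05 for TFH versus naive and -1.95 for TFR versus Treg cells.

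Cnn2 and Tagln2 encode calponin and transgelin relatives that are common in blood and immune cells. Cnn2 (chr10:79457785-79457844, plus strand) read 88546 and 88174 RU in naive, 99439 and 103219 RU in Treg, 75015 and 70053 RU in TFH and 73813 and 64496 RU in TFR cells. TFH and TFR arrays overlapped, and both were below naive and Treg arrays. The differences were small, with -0.29 ± 0.10 for TFH versus naive and -0.55 ± 0.10 for TFR versus Treg cells. On a dimmer probe (chr10:79457370-79457429) they had the same direction and another size, with -0.69 for TFH versus naive, -0.84 for TFR versus Treg cells. Scaling without quantile normalization gave -0.49 for TFH versus naive cells. Between TFR and TFH cells the difference was -0.07 ± 0.10, and 0.02 without the TFR array of d25 or -0.16 without the one of d12.

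Tagln2 (chr1:174437450-174437506, plus strand) was the member whose follicular steps pointed in opposite directions. It read 68875 and 66751 RU in naive and 22080 and 17697 RU in TFH cells, and 43673 and 45260 RU in Treg and 58165 and 51132 RU in TFR cells. Thus TFH arrays were below naive arrays and TFR arrays above Treg arrays at both days. The log2 difference was -1.78 ± 0.12 for TFH versus naive, 0.29 ± 0.12 for TFR versus Treg and 2.07 ± 0.17 for the contrast of both. On a dimmer probe (chr1:174436738-174436797) TFH cells read 5364 and 4736 RU against 21292 and 20078 RU in naive cells. There, TFR cells were above Treg cells at d12 (15766 against 13705 RU) and below at d25 (11913 against 14867 RU), with a mean log2 difference of -0.06. The lower level in TFH cells was therefore seen by both probes, but the higher level in TFR cells by 1 of them.

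**Figure D2:**
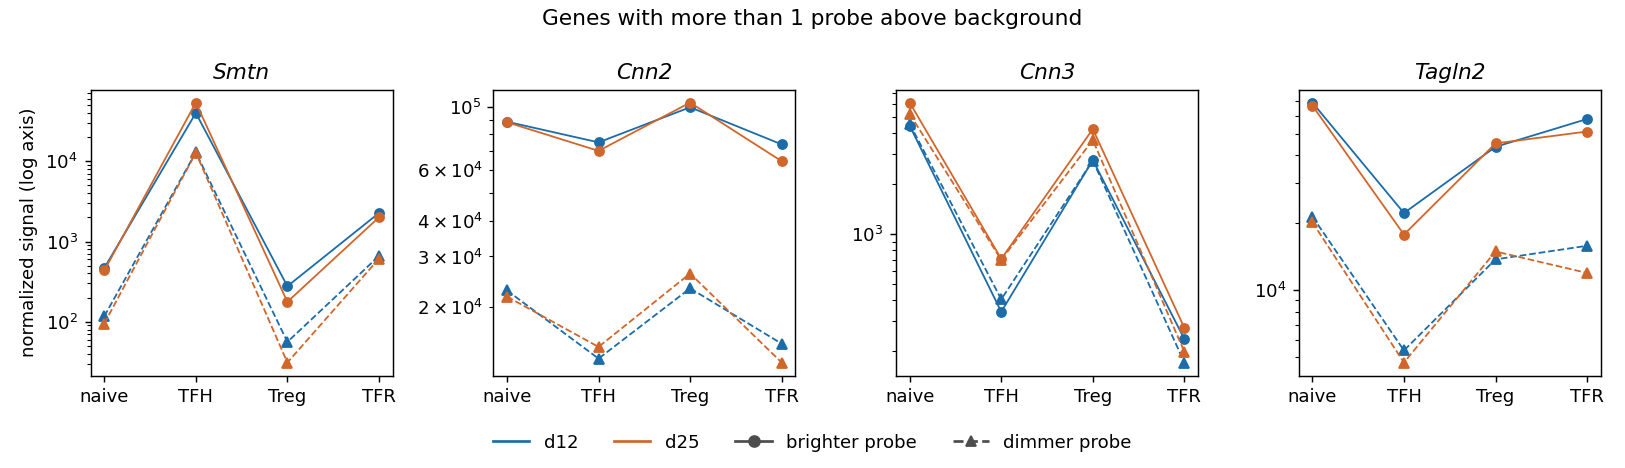
Levels in RU on a logarithmic y axis, scaled separately for each gene, for the 4 genes with a second probe above background, by cell type; solid lines with circles are the brighter and dashed lines with triangles the dimmer probe, in blue for d12 and orange for d25. Both probes give the same order of cell types for Smtn and Cnn3, while for Cnn2 they differ in the order of TFH and TFR cells at d12 and for Tagln2 the dimmer probe goes down from Treg to TFR cells at d25.

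Counted by whether the 2 arrays of both populations overlapped, 4 of 10 members were higher and 6 lower in TFH than in naive cells, where 29.8% and 38.2% of all genes tested were higher and lower without overlap. Between TFR and Treg cells the counts were 5 and 5 (background 30.9% and 38.8%). Between TFR and TFH cells 3 were higher and 5 lower (25.1% and 26.6%), and between Treg and naive cells 4 were higher and 5 lower (25.6% and 28.6%). As the members were chosen on these contrasts, nothing is read from these counts. In size, Smtn and Popdc2 differed by more between TFH and naive cells than between TFR and Treg cells. The contrast of both steps was -3.42 ± 0.36 for Smtn and -4.98 ± 0.39 for Popdc2, which was measured on all sides at d12 alone (-5.19). Conversely it was 5.30 ± 0.38 for Pdlim4 and 1.51 ± 0.28 for Pdlim1, whose lower levels in follicular cells were larger in size on the TFH side. Both steps lay within a slide at either day, and within the slides of d12 and d25 Smtn differed by 6.42 and 6.95 between TFH and naive cells and by 3.03 and 3.50 between TFR and Treg cells.

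**Figure D3:**
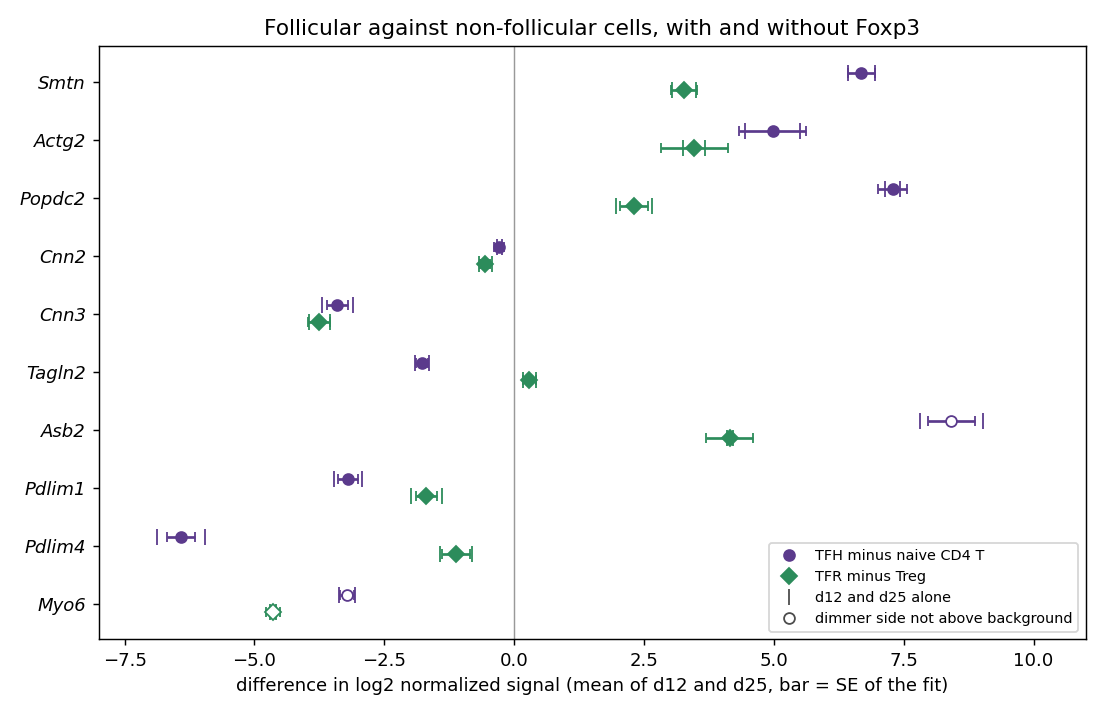
Log2 difference of TFH minus naive CD4 T cells (circles) and of TFR minus Treg cells (diamonds) for each gene, with the SE of the fit as a bar and the values of d12 and d25 alone as ticks; open symbols have a dimmer side that was not above background. Tagln2 is the only gene of the 10 with its symbols on opposite sides of 0, at -1.78 and 0.29, the latter being -0.06 on its dimmer probe.

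Next, the same genes were compared between d25 and d12 over all 4 cell types, for which the day and the slides cannot be told apart. None of the 10 genes passed an adjusted p below 0.05 by limma, against 0.0698% of all genes tested. At an unadjusted p below 0.05 there were 3 of 10, which is a share of 30% beside 28.8% of all genes. These were Popdc2 with -0.91 ± 0.20 (adjusted p = 0.0842), Cnn3 with 0.59 ± 0.15 (adjusted p = 0.101), and Pdlim1 with -0.39 ± 0.14 (adjusted p = 0.156). Popdc2 was lower at d25 in all 4 cell types, by -0.73 in naive, -0.45 in TFH, -1.58 in Treg and -0.87 in TFR cells. It passed the threshold with normexp (adjusted p = 0.0494) and with a variance trend over level (adjusted p = 0.0477) and not under the other settings tried. Smtn did not pass, with -0.12 ± 0.18, and neither did Actg2, with 0.02 ± 0.45, where naive and TFH cells were higher at d25 and Treg and TFR cells lower.

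By position, Smtn and Pdlim4 both lie on chromosome 11 and each of the others on another chromosome. RefSeq promoter windows of build GRCm38.p6, from 250 bases before to 50 after a start site, were searched for 9 of the 10 genes, all but Actg2, and 1 of the genes had more than 1 window. Both strands were read for the CArG box, which is the site of serum response factor in many muscle genes, for the MCAT motif CATTCC, the site of TEAD factors, and for the AP-1 site TGANTCA. A CArG box was found for Asb2 and Cnn2, and 1.63% of all 32851 windows held it. The MCAT motif was found for Smtn, Popdc2, Tagln2, and Myo6 (14.7% of all windows) and the AP-1 site for none (7.81%). The stretches that hold a motif in a gene highest in TFH cells, and that of Cnn2 for its CArG box, are shown 5′ to 3′ on the strand of the gene with the motif in capitals.
Asb2 (chr12:103356016-103356095, minus): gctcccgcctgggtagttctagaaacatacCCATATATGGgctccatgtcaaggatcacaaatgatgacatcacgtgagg
Cnn2 (chr10:79988514-79988593, plus): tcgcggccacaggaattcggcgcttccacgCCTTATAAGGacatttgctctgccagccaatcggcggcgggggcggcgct
Smtn (chr11:3539463-3539542, minus): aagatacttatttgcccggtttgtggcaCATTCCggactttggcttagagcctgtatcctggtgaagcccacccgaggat
Popdc2 (chr16:38362110-38362189, plus): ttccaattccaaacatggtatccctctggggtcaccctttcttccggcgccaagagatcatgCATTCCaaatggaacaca
The CArG box began 64 bases before the start site of Asb2 and 56 before that of Cnn2, whose levels in TFH against naive cells ran in opposite directions. A match of letters is a description of the window and not of a factor's binding. The MCAT motif began 222 bases before the start site of Smtn and 18 before that of Popdc2.

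To see which genes ran like Smtn and Actg2, the root mean square log2 distance of gene-centered values over the 8 arrays was taken for all genes tested. The nearest to Smtn were Pipox at 0.36, Padi4 at 0.57, H2-Q1 at 0.60, Vipr2 at 0.63, and Pla1a at 0.64. H2-Q1, Vipr2, and Pla1a were at the floor of 20 RU in naive and Treg cells, and Padi4 was not above background in Treg cells. Pipox, an enzyme of peroxisomes, read 4304 and 6383 RU in TFH cells, 234 and 186 RU in TFR cells, and 20 to 34 RU in naive and Treg cells, where it was not above background. The nearest to Actg2 were Gjb2 at 0.48, Matn2 at 0.60, Bcl2l15 at 0.70, Ica1 at 0.73, and Ebi3 at 0.78. All of these but Ebi3 were not above background in naive cells. Distances of genes not above background in some cells rest in part on unmeasured levels. Ebi3, a cytokine subunit known from regulatory T cells, read 30495 and 29799 RU in TFR cells, 6376 and 4522 RU in Treg cells, 3805 and 3600 RU in TFH cells and 286 and 221 RU in naive cells. Among the members themselves, the nearest to Smtn was Popdc2 at 0.85.

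As the name of the set refers to smooth muscle, 12 markers of smooth muscle cells were looked up. On no array were 8 of them above background, among these Myh11, Cnn1, Des, Lmod1, and Myocd, and Myh11 and Cnn1 were at the floor of 20 RU on all arrays. The sum of the list was 2154 to 2539 RU in TFH, 2096 to 2238 RU in naive, 1796 to 1861 RU in TFR and 1580 to 1748 RU in Treg cells. The other 4 were Tagln and Hspb6, above background on all 8 arrays, Mylk on 6 and Acta2 on 4. Of 7 markers of striated muscle, 6 were above background on no array. Endothelial markers summed to between 2129 and 5047 RU. Thus transcripts of defining proteins of the smooth muscle cell, such as its myosin heavy chain Myh11 and its calponin Cnn1, were not measured above background.

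Among the smooth muscle markers that were measured, Acta2 was high in follicular cells. It read 666 and 769 RU in TFH and 262 and 173 RU in TFR cells, and 51 and 69 RU in naive and 56 and 48 RU in Treg cells, none of the latter 4 above background. It rose by at least 10.4-fold in TFH versus naive cells (limma adjusted p = 0.000805) and by at least 4.01-fold in TFR versus Treg cells (adjusted p = 0.00576). Acta2 fell in TFR versus TFH cells, with -1.75 ± 0.27 on the log2 scale (adjusted p = 0.0138), so among the smooth muscle actins Acta2 was higher in TFH and Actg2 in TFR cells. Mylk, the kinase of the myosin light chain, fell in both follicular steps at levels of 54 to 82 RU, with -0.34 ± 0.09 and -0.32 ± 0.09 (adjusted p = 0.0275 and 0.0404), and Tagln and Hspb6 did not pass the test.

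Markers of other cells moved with Acta2 in part. Of 11 markers of stroma and pericytes 5 were above background on no array, and the list summed to 582 to 736 RU in TFH, 695 to 871 RU in TFR, 628 to 724 RU in naive and 556 to 647 RU in Treg cells. Among them Col1a1, a collagen chain, was above background in TFH (197 and 48 RU) and TFR cells (288 and 195 RU) and on no naive or Treg array. Col1a2 was above background on both TFR arrays (172 RU at d12) but on no other. Dcn was above background on the TFH arrays alone (55 and 57 RU), and Col3a1 on the TFH array of d12 alone (84 RU). Ccl19 and Sparc, above background on all 8 arrays and part of each sum, were lower in both follicular steps at both days. Ccl19 read 155 and 191 RU in TFH against 291 and 227 RU in naive cells. Sparc read 104 and 132 RU in TFH against 164 and 172 RU in naive cells. Of 7 myeloid markers on the array 2 were above background on none. The list summed to 59967 to 66609 RU in TFH, 50956 to 55909 RU in TFR, 71904 to 84339 RU in naive and 63812 to 66404 RU in Treg cells. Most of each sum was Siglech (47255 to 82579 RU), so the sums do not describe the other markers. Of these, Cd68 read 5098 and 3768 RU in TFH and 2868 and 2333 RU in TFR cells against 368 to 564 RU in the others. Lyz2 read 461 and 1248 RU in TFH and 379 and 1258 RU in TFR cells, against 205 to 449 RU in the others. Csf1r read 394 to 543 RU in TFH and TFR cells and 496 to 681 RU in the others. Itgax was above background on 1 naive array alone. The part of these cells in the level of Acta2 was not tested.

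The cytoplasmic actin isoforms differed by less. Actg1 was higher in TFH than in naive cells by 0.55 ± 0.11 (adjusted p = 0.0136), but by -0.28 with scaling alone and no quantile normalization, so its direction is not settled. Actb differed by 0.34 ± 0.11 (adjusted p = 0.0573). Acta1 and Actc1, of striated muscle, were at the floor on all arrays.

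Many relatives of the other members were not measured above background. Cnn1, Tagln3, Popdc3, Bves, and Pdlim3 were at about 20 RU on all arrays, and Smtnl2 and Ldb3 were above background on none. Tagln, the transgelin of smooth muscle, was between 512 and 723 RU on all arrays and did not pass the test in any contrast of cell types, with 0.08 ± 0.12 for TFH versus naive cells (adjusted p = 0.603). Smtnl1 was uneven between the TFH arrays (401 and 47 RU) and did not pass either, with 0.97 ± 0.67 (adjusted p = 0.285). Within the PDZ-LIM family, Pdlim7 rose where Pdlim1 was lower, by 2.44 ± 0.09 in TFH versus naive (adjusted p = 0.000180) and by 2.23 ± 0.09 in TFR versus Treg cells (adjusted p = 0.000480). Pdlim5 fell, with -1.19 ± 0.15 (adjusted p = 0.00390) and -0.93 ± 0.15 (adjusted p = 0.0106). Pdlim2, which is known to restrain inflammatory T helper responses, differed by -0.06 ± 0.12 and -0.03 ± 0.12 and did not pass.

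Together with these relatives, 133 genes of actin filaments and their partners that are no members were listed, of which 84 could be tested. Between TFH and naive cells 23 of 84 were called higher and 24 lower by limma at an adjusted p below 0.05, which is 27.4% and 28.6% beside 20.9% and 25.6% of all genes tested. Between TFR and Treg cells it was 17 and 17, or 20.2% each, beside 18.7% and 20.9%. With normexp the split was 20 to 13. Between TFR and TFH cells 13 were higher and 11 lower (background 11.6% and 10.5%), and between Treg and naive cells 7 and 4 (5.89% and 3.98%). The contrast of the follicular steps called 13 (background 8.49%), and between the days 0 were called (23 of 84, or 27.4%, at an unadjusted p below 0.05), against 6 with normexp, 6 with a variance trend and 5 among genes above background on all arrays. The median difference of the 84 genes was 0.07 for TFH versus naive cells, beside -0.07 for all genes tested, and -0.01 beside -0.08 for TFR versus Treg cells. Nothing particular to the list is read from these shares. Leaving out 1 array left a cell type with a lone array, which was assumed to vary like the others, and the TFR versus Treg calls then numbered 12 or 18 without a Treg array and 14 without either TFR array. The TFR versus TFH calls numbered 13 without either TFR array. The Treg versus naive calls numbered 4 without either Treg array, 5 without either naive array and 7 without either TFR array. The calls of the contrast numbered 2 without either TFR array, and 3 or 4 without a naive or a Treg array.

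Among 17 unconventional myosins tested, 7 rose and 7 fell in TFH versus naive cells, or 41.2% each beside 20.9% and 25.6% of all genes tested. Myo1f rose by 2.09 ± 0.09 in TFH versus naive (adjusted p = 0.000223) and by 1.94 ± 0.09 in TFR versus Treg cells (adjusted p = 0.000567), and Myo1d by 1.95 ± 0.27 in both (adjusted p = 0.00458 and 0.00625). Myo1e, a myosin of membrane-bound actin, was not above background in naive cells (20 and 29 RU) and read 631 and 1315 RU in TFH, 1342 and 1153 RU in Treg and 4631 and 5343 RU in TFR cells. It was higher by at least 15.6-fold in TFH versus naive cells. The limma adjusted p of 0.000442 belongs to the fitted 5.23, which rests on naive arrays not above background, and not to this bound. Myo1e was highest in TFR cells, as Actg2 was, and rose there by 1.79 at d12 and 2.21 at d25 over Treg cells (adjusted p = 0.00887). Myo1a fell in both steps, with log2 differences of -1.19 ± 0.13 and -0.51 ± 0.13 (adjusted p = 0.00215 and 0.0322). Myo18a rose in TFH versus naive cells by 1.57 ± 0.11 (adjusted p = 0.000615) and differed by 0.04 ± 0.11 between TFR and Treg cells, or by -0.56 as the mean of all its probes.

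Among 18 alpha-actinins and other LIM proteins tested, 5 rose and 6 fell in TFH versus naive cells, or 27.8% and 33.3% beside the same shares of all genes. Actn1, an alpha-actinin of non-muscle cells and the type of partner that Pdlim1 binds, fell by 3.55 ± 0.18 in TFH versus naive (adjusted p = 0.000300) and by 2.36 ± 0.18 in TFR versus Treg cells (adjusted p = 0.00160). Its levels were 2424 and 2669 RU in naive and 263 and 180 RU in TFH cells, so it was lower in the same populations as Pdlim1. Actn4, another alpha-actinin, was brighter, at 21055 to 24584 RU on all arrays. It did not pass, with 0.15 ± 0.08 for TFH versus naive (adjusted p = 0.191) and 0.08 ± 0.08 for TFR versus Treg cells (adjusted p = 0.465). Actn2, best known from striated muscle, fell by 1.97 ± 0.35 in TFR versus Treg cells (adjusted p = 0.0125), and Ablim1 fell there too, with -1.47 at d12 and -1.52 at d25 (adjusted p = 0.000777). Csrp2, a LIM protein of smooth muscle, was highest in TFR cells at 1443 and 1030 RU and rose over TFH cells by 1.70 ± 0.12 (adjusted p = 0.00192).

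Some of these genes were highest in TFH cells, as Smtn was. Ppp1r14b, an inhibitor of myosin phosphatase, read 91100 and 102199 RU in TFH cells and between 20883 and 29665 RU in all others. Tpm1, a tropomyosin, read 2989 and 3612 RU in TFH cells and between 628 and 920 RU in all others. They rose by 2.18 ± 0.10 and 2.01 ± 0.11 in TFH versus naive cells (adjusted p = 0.000241 and 0.000385). Both fell in TFR versus TFH cells, with -1.72 ± 0.10 for Ppp1r14b (adjusted p = 0.00115) and -1.94 ± 0.11 for Tpm1 (adjusted p = 0.00120). Lpp, a LIM protein of adhesion sites, rose by 2.03 ± 0.22 in TFH versus naive cells (adjusted p = 0.00219) and fell by 0.83 ± 0.22 in TFR versus Treg cells (adjusted p = 0.0367). Flna, the filamin that Asb2 is known to target, fell by 1.20 ± 0.11 in TFH versus naive cells (adjusted p = 0.00128), where Asb2 was high. It differed by -0.02 ± 0.11 between TFR and Treg cells, where Asb2 was higher in TFR cells too. These are RNA levels, and filamin protein, the target of the ligase, was not measured.

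**Figure D4:**
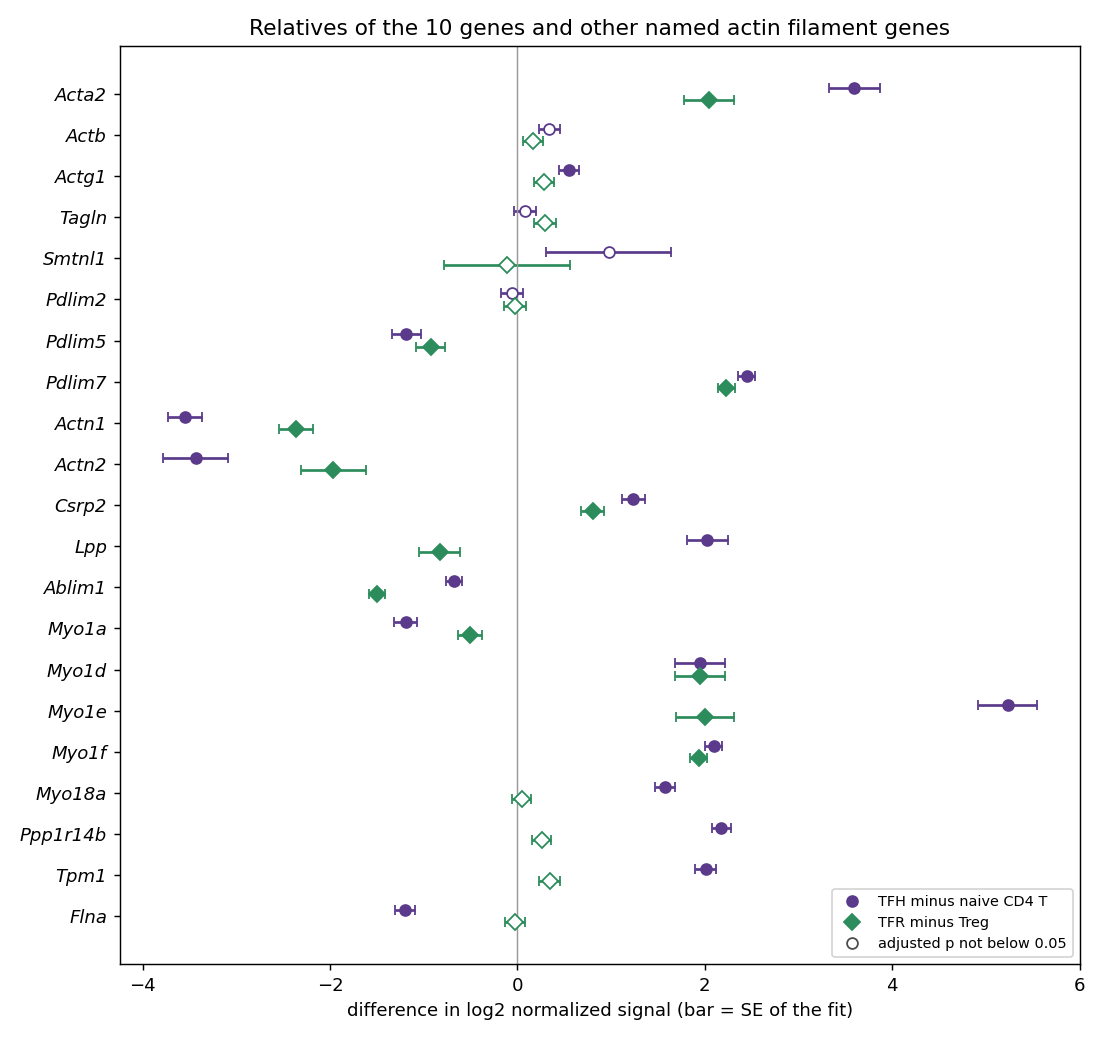
Log2 difference of TFH minus naive CD4 T cells (circles) and of TFR minus Treg cells (diamonds), with the SE of the fit. Shown are the tested relatives of the members and the other actin filament genes named, without Actn4 and Mylk. Open symbols did not pass an adjusted p of 0.05 by limma. Acta2, Myo1e, Ppp1r14b, Tpm1, and Lpp lie to the right for TFH cells, while Lpp alone lies below 0 for TFR cells among those 5. Naive cells were not above background for Acta2 and Myo1e, and neither were Treg cells for Acta2.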

How the data were processed

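RNA of 4 sorted CD4 T cell populations at 2 days was measured on 8 one-color Agilent arrays. The authors extracted the spots with Agilent Feature Extraction 10.7.3.1 and deposited spot intensities with quality flags, plus a table of normalized intensities. Their steps were rerun here from the spots. A probe is the geometric mean of its 4 spots, less flagged, outlying or uneven spots (86.5% to 89.2% of spots were kept). Arrays were quantile normalized, scaled to a 75th percentile of 1500 and floored at 20. Log2 values correlated with the authors' deposited intensity table at a Pearson r of 0.999 on each array. For each gene the probe with the highest mean was used, and it was tested if both arrays of at least 1 cell type were above background, so a gene measured in a single population also passed. limma 3.58.1 (R 4.3.3) fitted cell type and day as additive terms, with 3 residual degrees of freedom, and p-values were adjusted by Benjamini-Hochberg over all 15764 genes. "At least N-fold" sets the bright group's mean against, on each dim array, the probe's own level or the lowest level above background, whichever is higher. The fit was tested on simulated data. Members and gene lists were chosen with earlier results of these data known. Named besides the members were their gene families and, per contrast of cell types, up to 3 other listed genes that rose most and 3 that fell most, among those called, above background in both groups and of 1 direction at both days. Outside this rule, Actn4 was named beside Actn1. Alternatives were other scalings, background correction, filters, probes, blocks for the slide, and leaving out each array. The number of arrays limits the precision.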

Additional observations from a re-analysis of the deposited data

Results flagged for a closer look

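Tagln2 was lower in TFH than in naive cells and higher in TFR than in Treg cells at both days, which gave a contrast of the follicular steps of 2.07 ± 0.17 on the log2 scale. This difference was not tested, because Tagln2 was chosen by its levels, and the dimmer probe did not show the higher level in TFR cells.

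The test of the difference between the follicular steps itself (limma, TFR minus Treg against TFH minus naive) called 13 of the 84 related genes, or 15.5%, beside 8.49% of all genes tested. Of these, 7 are named here, and they were named for large changes in the same cell types. The contrast was -2.86 for Lpp (adjusted p = 0.0120), -1.92 for Ppp1r14b (adjusted p = 0.00539), and -1.66 for Tpm1 (adjusted p = 0.00989). It was -1.53 for Myo18a (adjusted p = 0.00991), -0.82 for Ablim1 (adjusted p = 0.0228) and 1.17 for Flna (adjusted p = 0.0173). For Ablim1 both steps were lower and the one of TFR cells more so. For Myo1e the fitted value of -3.23 (adjusted p = 0.0201) is no measured size, since the naive arrays were not above background, and it did not pass with normexp. Ppp1r14b passed under every alternative, whereas the other 6 lost the call without either TFR array, when the 13 calls became 2.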

How the results depend on the processing

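The values of the 10 members under the alternatives were set against the standard deviation of the d12 and d25 differences. By this measure 874 moved by no more, 133 moved by more and 3 changed sign. Part of the 874 was fixed in advance. Filters, the variance trend and a fit without the day leave these estimates unchanged, and a single day that keeps the sign always falls within the measure. The 874 are therefore not read as robustness. The sign changed for the Cnn3 contrast of the follicular steps at d12 alone (0.14), for Tagln2 in TFR versus Treg cells on the dimmer probe (-0.059), and for Cnn2 in TFR versus TFH cells, which ran from -0.16 to 0.018 when 1 array was left out. Among other named genes it changed for Actg1 in TFH versus naive cells with scaling alone (-0.28) and for Myo18a in TFR versus Treg cells with the mean of all probes (-0.56). The cause was not tested.

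Calls among the 84 related genes numbered 15 with no filter on low values and 15 with the slide as a block for TFR versus TFH (main 24). For Treg versus naive cells they numbered 7 among genes above background on all arrays, 6 with no filter and 4 with the slide (main 11), and for the contrast of the steps 4 with no filter and 8 with the slide (main 13). Between the days 6 were called with normexp, 5 among genes above background on all arrays and 6 with a variance trend (main 0). Of the members, 1 (Popdc2) was called with normexp and 1 with the trend. With 1 array left out, calls ran from 12 to 38 for TFR versus Treg, 13 to 22 for TFR versus TFH, 4 to 10 for Treg versus naive and 2 to 13 for the contrast of the steps. The day was a term of the fit, so arrays of the same day were paired, and without it no count of calls moved by over 1.5 times. With 2 arrays per cell type and levels near background for several members, differences against a dim group are the least precise.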
